A study of Homo sapiens with 7 samples.

Results

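The transcription factor p53 is held at a low level in resting cells by MDM2, which marks it for degradation, and by MDM4, which blocks its activity. DNA damage and other stresses release it, and it then binds paired half-sites near its target genes, whose products stop the cell cycle, repair DNA, adjust metabolism, start apoptosis and, through MDM2 itself, close the loop. HEK-293, an established human embryonic kidney line, carries adenoviral E1 genes: the E1A protein stabilises p53 and the large E1B protein binds it and holds back its activity as a transcription factor. The question here was whether known p53 target genes moved together in this line under acidosis or under a kinase inhibitor. Viral transcripts were not analysed here.

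The genes described are 29 known p53 targets, chosen by name among the 19978 genes of the deposited count table. All 29 were in the table and all passed the expression filter of edgeR, which left 14863 genes to test. In 3 groups HEK-293 cells were sequenced after 48 h: control at pH 7.4 with the vehicle DMSO (n = 2), acidosis at pH 6.6 with DMSO (n = 3), and SRPIN340 at 10 µM in medium of pH 7.4, also with DMSO (n = 2). SRPIN340 inhibits kinases that phosphorylate SR splicing factors. The study describes the samples of a group as biological repeats of one established line, and the table held 1 column for each.

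Library totals ran from 13615816 to 24110460 counts, so the libraries were deep enough that no member lay at the counting floor of 3 counts in any group. Levels are given with the SD between samples as CPM, counts scaled to a common library size after the totals had been corrected by TMM, which aligns libraries on the bulk of their genes. A gene was called when its Benjamini-Hochberg adjusted p over all tested genes was under 0.05 and its absolute log2 fold change was over 1, and it passed when the adjusted p alone was under 0.05. TMM factors were 1.17 to 1.21 at pH 7.4 and 0.78 to 0.80 at pH 6.6. Scaling by total count alone moved the acidosis median over all genes from -0.052 to -0.63 (log2), so a direction in acidosis is relative to the typical gene. In bulk samples, fewer cells of a type and less RNA per cell cannot be told apart. All 8 marker genes listed for HEK-293 were above 1 CPM in every sample, with sums of 1448 to 1494 CPM in control, 1441 to 1505 with SRPIN340 and 3573 to 3599 in acidosis. That sum followed VIM, at 842 to 892 CPM in control and 2675 to 2745 in acidosis, while PAX2 was at 6.49 to 7.06 and 1.19 to 2.48 CPM, so the markers went both ways. The summed level of 6 fibroblast genes, 3 of them above 1 CPM in every sample, was 45.5 to 46.0 CPM in control, 48.5 to 58.3 with SRPIN340 and 82.9 to 94.8 in acidosis, while none of 5 leukocyte genes and none of 4 endothelial genes exceeded 1 CPM throughout. In the fibroblast list COL1A1 and LUM were higher in every acidosis sample than in the control samples, and COL3A1 and PDGFRA were lower. The leukocyte sum was 1.15 to 1.40 CPM in control, 0.958 to 1.18 with SRPIN340 and 3.31 to 5.05 in acidosis, with CD3E at 0 in every sample. The endothelial sum was 5.55 to 6.07, 4.46 to 6.91 and 1.03 to 2.67 CPM in the same order. The part of these genes in the results was not tested.

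Matches to the p53 consensus near the members were searched in sequence alone, and binding of p53 was not measured. The consensus has 2 half-sites of 10 bases, and it is its own reverse complement, so 1 scan covers both strands. Windows of 2500 bases on each side of the start site were scanned in the 24 members, and in 15328 genes in all, that have a RefSeq promoter entry. A match had no gap between half-sites, a core of 4 letters in each that begins with C, ends with G and has A or T at both places between, and at most 2 mismatches outside them. Matches were found in 8 members (33.3%) and in 352 of all 15328 genes (2.3%). The members were chosen as known p53 targets, so this share is a description. The sites of 5 members are shown because these genes differ in their response to acidosis, each read on the strand of its gene with the cores in capitals.
PLK2: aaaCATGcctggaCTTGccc
AEN: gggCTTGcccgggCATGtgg
CCNG1: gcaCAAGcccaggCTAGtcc
ZMAT3: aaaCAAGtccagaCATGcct
FAS: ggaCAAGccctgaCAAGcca
In the GRCh38 build the PLK2 match lay at chr5:58462274-58462293 on the minus strand, outside the gene and 2197 bases upstream of the start site, with 0 mismatches. The AEN match, at chr15:88621306-88621325 on the plus strand, had 2 mismatches and lay 24 bases upstream of the start, outside the gene. CCNG1 held a match with 1 mismatch in an intron at chr5:163437926-163437945, on the plus strand and 341 bases downstream of the start, and a second one that does not overlap it. The ZMAT3 match, with 0 mismatches, lay in an intron at chr3:179070188-179070207 on the minus strand. The FAS match, with 2 mismatches, overlapped an annotated exon at chr10:88991309-88991328 on the plus strand. PLK2 and AEN were called higher in acidosis, CCNG1 was called lower, and ZMAT3 and FAS did not pass the test. Among members with a window, 2 of 6 called higher, 1 of 6 called lower and 5 of 12 not called held a match, the last being EDA2R, FAS, GDF15, SPATA18 and ZMAT3.

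The 29 genes did not move together in acidosis. Against control, 8 were called higher, 6 were called lower, and 15 were not called. Of all genes tested, 14.4% were called higher and 19.1% lower, 33.5% in all. The higher genes were MDM4, GADD45A, PLK2, PLK3, SERTAD1, TNFRSF10B, PERP and AEN, and the lower ones were CCNG1, XPC, DDB2, TIGAR, FDXR and TP53I3. With the adjusted p alone, 11 passed as higher and 10 as lower, and 8 did not pass, while 32.5% and 34.2% of all genes passed in the respective directions. The median log2 fold change of the members was 0.06, and that of all genes tested was -0.05. The median absolute log2 fold change was 0.80 for the members and 0.74 for all genes. All 3 acidosis samples lay outside both control samples for 22 members, 11 above and 11 below, as they did for 76.5% of all genes, 37% above and 39.4% below. With scaling by total count only, 6 members were called higher and 10 lower, beside 815 and 5202 of all 14863 genes. The member median under this scaling was -0.52 beside the -0.63 of all genes. The 8 members named as higher passed as higher, and the 6 named as lower passed as lower, under TMM, RLE, upper quartile and total count scaling and with DESeq2.

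**Figure D1:**
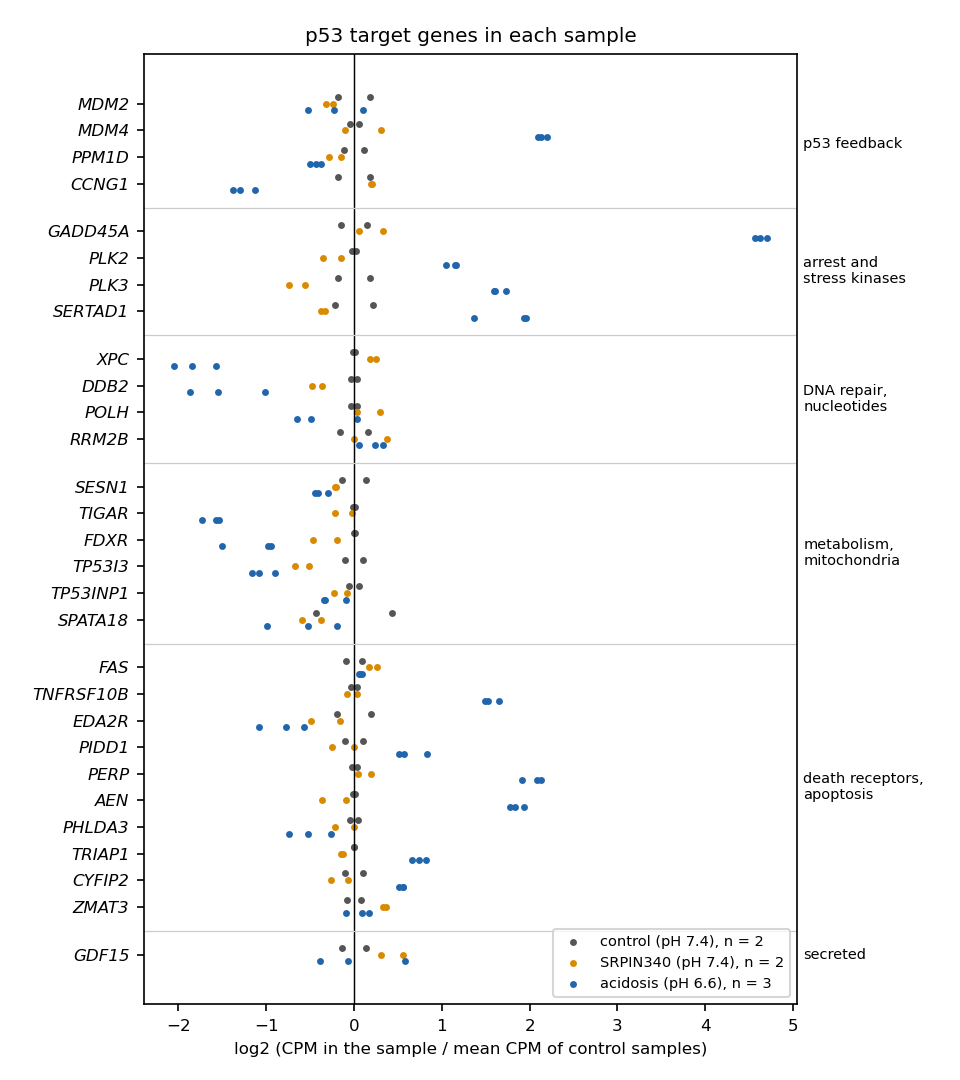
Level of each of the 29 p53 target genes in each of the 7 samples, grouped by role. Values are log2 CPM minus the mean log2 CPM of the control samples, which is the mean meant in the axis label. Each point is 1 sample; the acidosis points lie far to the right for GADD45A, MDM4 and PERP and to the left for XPC and TIGAR, while control and SRPIN340 points stay within 1 unit of 0.

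The products of 4 members act back on p53, and they split. MDM4, which binds p53 and blocks its activation domain, was measured at 50.1 and 46.7 CPM in control, at 45.0 and 59.9 with SRPIN340 and at 206, 222 and 212 in acidosis. Every acidosis sample was therefore above every other sample. MDM4 (chr1:204516379-204558120, plus strand) rose 4.41-fold, a log2 fold change of 2.14 (SE 0.12, edgeR adjusted p = 3.11e-07). Its partner MDM2 (chr12:68808177-68845544, plus strand), the ubiquitin ligase that p53 itself induces, had 270.4 and 210.1 CPM in control, 201 and 191 with SRPIN340, and 204, 257 and 166 in acidosis. These groups overlapped, and MDM2 did not pass, with a log2 fold change of -0.20 (SE 0.162, edgeR adjusted p = 0.292). Its exons share 133 bases with the coding gene CPM on the opposite strand. CCNG1, or cyclin G1, which activates MDM2 through a phosphatase, had 393 and 304 CPM in control, 395 and 398 with SRPIN340, and 140.3, 133 and 158 in acidosis. It fell 2.42-fold in acidosis (log2 fold change -1.28, SE 0.109, edgeR adjusted p = 4.73e-06), with all 3 acidosis samples below the others. PPM1D encodes the phosphatase that switches off p53 and the kinases above it, and passed as lower with a smaller change, from 55.2 ± 6.19 CPM (n = 2) to 40.7 ± 1.78 (n = 3), a log2 fold change of -0.44 (edgeR adjusted p = 0.00424).

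The ratio of MDM4 to MDM2 within a sample needs no scaling between libraries. On the log2 scale it was -2.43 and -2.17 in control, -2.16 and -1.67 with SRPIN340, and 0.02, -0.21 and 0.36 in acidosis, so the groups did not overlap and the acidosis mean was higher by 2.36. This ratio was chosen after the values had been seen and has no test. CPM are not per length, so it compares samples and not the levels of the 2 genes. Neither CPM nor the fits were corrected for transcript length, and a shift between transcripts of a gene was not tested.

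All 4 members listed under cell cycle arrest and stress kinases were called higher, where 14.4% of all genes were. This heading is loose for SERTAD1, which is a coactivator and not a kinase. GADD45A (chr1:67685201-67688334, plus strand), which binds PCNA and inhibits CDK1, changed most of the 29. Its control samples held 42.6 and 34.8 CPM, the SRPIN340 samples 48.5 and 40.2, and the acidosis samples 949.6, 1004 and 909.7. The acidosis samples thus stood apart from all 4 others by a wide gap, and the fold change was 24.7 (log2 fold change 4.63, SE 0.123, edgeR adjusted p = 6.49e-09). PLK2 (chr5:58453982-58460139, minus strand), a polo-like kinase induced by stress, had 22.4 and 21.7 CPM in control, 17.2 and 19.9 with SRPIN340, and 45.7, 49.3 and 49.0 in acidosis. Its acidosis samples were above all others, with a log2 fold change of 1.12 (SE 0.111, edgeR adjusted p = 1.3e-05). Under total count scaling PLK2 kept its direction and passed, but at 0.55 it was no longer over the fold limit.

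PLK3, its relative, was among the lower-expressed members. It had 3.49 and 2.70 CPM in control, 1.84 and 2.09 with SRPIN340, and 9.38, 9.27 and 10.2 in acidosis. Again the 3 acidosis samples were the highest (log2 fold change 1.63, SE 0.224, edgeR adjusted p = 0.000125). PLK3 shares 98 exonic bases with DYNLT4 on the opposite strand. SERTAD1, a coactivator that binds CDK4 and E2F complexes, had 8.83 and 11.8 CPM in control, 7.85 and 8.12 with SRPIN340, and 39.3, 26.3 and 39.8 in acidosis. It rose by 1.77 on the log2 scale (SE 0.211, edgeR adjusted p = 4.74e-05), and relative to its mean its acidosis samples were spread more widely than those of the other 3 genes of this role. Over the 4 genes the acidosis level was 2.18 to 24.7 times that of control.

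Of 4 members for DNA repair and nucleotide supply, 2 were called lower and none higher, beside 19.1% and 14.4% of all genes. XPC (chr3:14145147-14178621, minus strand), the damage sensor of global nucleotide excision repair, had 47.6 and 47.0 CPM in control, 56.4 and 53.8 with SRPIN340, and 13.1, 11.4 and 15.9 in acidosis. It fell 3.51-fold, the largest decrease among the 29 (log2 fold change -1.81, SE 0.131, edgeR adjusted p = 1.55e-06), and no acidosis sample reached the others. DDB2 (chr11:47214465-47239217, plus strand), which finds ultraviolet lesions for the same repair pathway, had 48.4 and 51.0 CPM in control, 38.6 and 35.7 with SRPIN340, and 16.9, 13.59 and 24.5 in acidosis. It fell 2.71-fold (log2 fold change -1.44, SE 0.192, edgeR adjusted p = 0.000103), and the 3 groups did not overlap. XPC shares 413 exonic bases with a coding gene on the opposite strand.

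The other two of this role did not pass. POLH, the polymerase that copies past ultraviolet lesions, went from 34.1 ± 1.15 CPM in control (n = 2) to 26.9 ± 6.95 in acidosis (n = 3, log2 fold change -0.35, edgeR adjusted p = 0.121). RRM2B, the p53-induced subunit of ribonucleotide reductase, had 35.1 ± 5.29 CPM in control (n = 2) and 40.5 ± 3.85 in acidosis (n = 3), a log2 fold change of 0.20 under TMM and -0.37 under total count scaling.

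The 6 members for metabolism, redox control and mitochondria all had log2 fold changes below 0 in acidosis. Of them 3 were called lower and 4 passed as lower, beside 19.1% and 34.2% of all genes. The median log2 fold change of the 6 was -0.83. TIGAR (chr12:4307763-4360028, plus strand), a phosphatase that lowers glycolytic flux, had 55.5 and 56.0 CPM in control, 54.8 and 47.8 with SRPIN340, and 18.7, 16.8 and 19.3 in acidosis. The acidosis samples sat well under the other 4, a 3.05-fold fall (log2 fold change -1.61, SE 0.107, edgeR adjusted p = 9.31e-07). TIGAR shares 1711 exonic bases with another coding gene on the same strand, so the counts may have been split between them. FDXR, ferredoxin reductase of the mitochondrial electron chain to cytochrome P450 enzymes, had 14.8 and 14.95 CPM in control, 13.05 and 10.8 with SRPIN340, and 7.72, 7.53 and 5.25 in acidosis. It fell by 1.12 on the log2 scale (SE 0.19, edgeR adjusted p = 0.000522). TP53I3, a quinone oxidoreductase also called PIG3, had 15.1 and 17.2 CPM in control, 10.1 and 11.3 with SRPIN340, and 8.61, 7.62 and 7.22 in acidosis. It fell by 1.04 (SE 0.156, edgeR adjusted p = 0.00023). For FDXR and TP53I3 all 3 acidosis samples were below all others. Both genes lay close to the fold limit and were no longer called without the third acidosis sample. TP53I3 also lost its call without the second control sample, so 12 or 13 members were called in these fits instead of 14.

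SESN1, a sestrin that restrains mTORC1, passed with a smaller decrease, from 46.2 ± 6.3 CPM (n = 2) to 35.2 ± 1.94 (n = 3, log2 fold change -0.39, edgeR adjusted p = 0.0106). TP53INP1, which promotes autophagy and cell death, was at 35.0 ± 2.12 CPM in control (n = 2) and 29.4 ± 3.01 in acidosis (n = 3) and did not pass (edgeR adjusted p = 0.083). SPATA18, a factor of mitochondrial quality control, was at 5.92 ± 2.42 and 3.92 ± 1.05 CPM and did not pass either (edgeR adjusted p = 0.12).

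**Figure D2:**
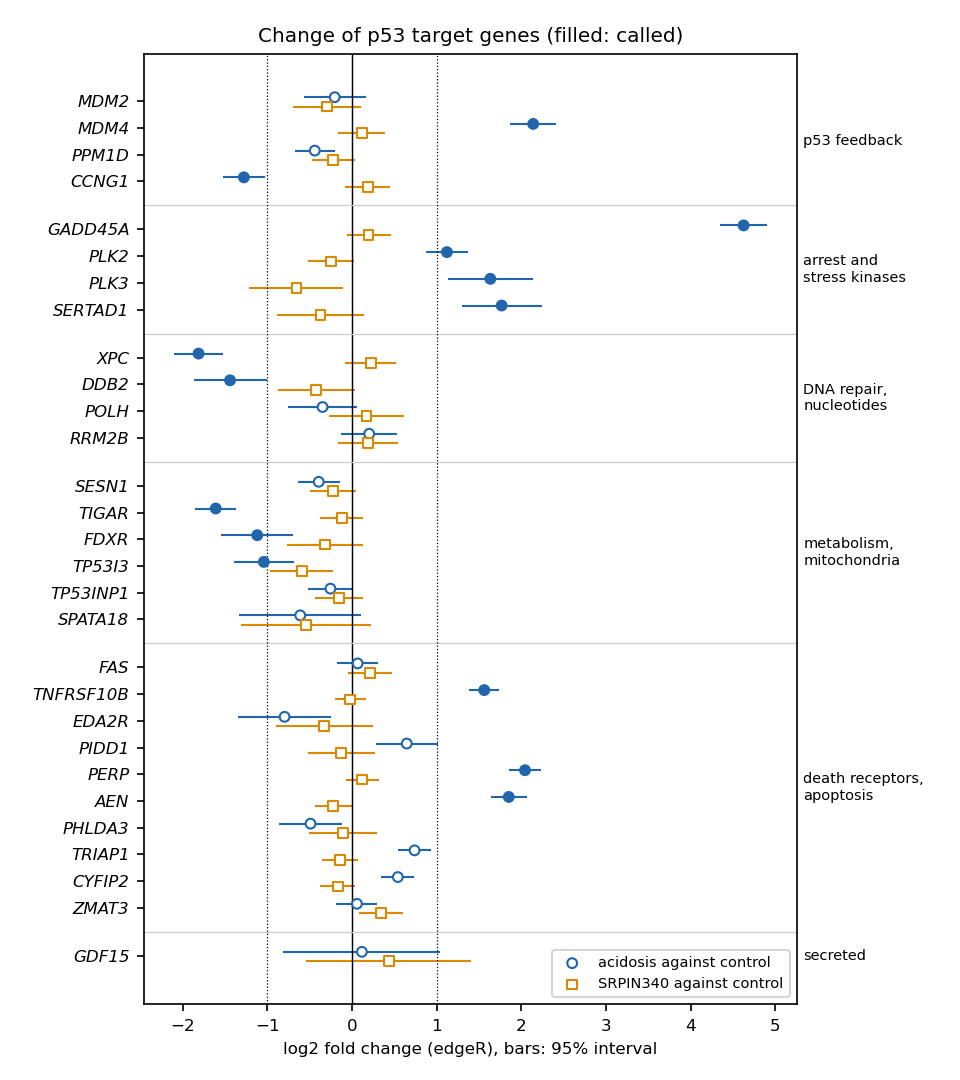
Log2 fold change of each of the 29 p53 target genes against control in acidosis (circles, n = 3 against 2) and with SRPIN340 (squares, n = 2 against 2), with 95% intervals from edgeR, where filled symbols are called and dotted lines mark the fold limit of 1. Acidosis changes span -1.81 to 4.63 with 14 filled circles, and SRPIN340 changes span -0.66 to 0.44 with none filled.

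Death receptors, apoptosis genes and their regulators, 10 in all, depended as a group on the scaling. Under TMM 3 were called higher and 0 lower, beside 14.4% and 19.1% of all genes. With the adjusted p alone 6 passed as higher and 2 as lower, beside 32.5% and 34.2%. Under total count scaling 2 were called higher and 2 lower, beside 815 and 5202 of all 14863 genes. Under that scaling 3 passed as higher and 4 as lower, beside 2413 and 8179 of all genes. PERP (chr6:138088505-138107419, minus strand), a membrane protein of desmosomes and of p53-driven apoptosis, had 166 and 159 CPM in control, 168 and 186 with SRPIN340, and 613, 688 and 709 in acidosis. All acidosis samples were above all others, and it rose 4.12-fold (log2 fold change 2.04, SE 0.0845, edgeR adjusted p = 5.12e-08). AEN (chr15:88621337-88632281, plus strand), a nuclease that cuts DNA in apoptosis, had 79.7 and 81.5 CPM in control, 75.7 and 62.8 with SRPIN340, and 309, 288 and 277 in acidosis. It rose 3.61-fold (log2 fold change 1.85, SE 0.095, edgeR adjusted p = 1.86e-07), without overlap. TNFRSF10B, the death receptor DR5 for the ligand TRAIL, had 96.3 and 100.4 CPM in control, 101 and 93.0 with SRPIN340, and 309.8, 277 and 284 in acidosis. Its 2.95-fold rise also left no overlap (log2 fold change 1.56, SE 0.0787, edgeR adjusted p = 1.67e-07), and 377 of its exonic bases are shared with RHOBTB2 on the opposite strand. Under total count scaling TNFRSF10B passed at 0.99, just under the fold limit.

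PIDD1, TRIAP1 and CYFIP2 also passed as higher under TMM scaling, with changes under the fold limit, and they did not pass under total count scaling. TRIAP1, a mitochondrial lipid transfer protein that opposes apoptosis, went from 45.5 ± 0.0234 CPM (n = 2) to 75.9 ± 4.13 (n = 3, log2 fold change 0.74). PIDD1, the core of a caspase-2 activating complex, went from 11.8 ± 1.22 to 18.5 ± 2.2 CPM (log2 fold change 0.65), and CYFIP2, a subunit of the WAVE actin-regulating complex, from 164 ± 17 to 239 ± 4.35 CPM (log2 fold change 0.54, and -0.03 under total count scaling).

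EDA2R, a receptor for ectodysplasin of the TNF receptor family, and PHLDA3, which blocks AKT at the membrane, passed as lower. EDA2R went from 6.68 ± 1.25 to 3.81 ± 0.668 CPM (log2 fold change -0.80, edgeR adjusted p = 0.0155), and PHLDA3 from 16.0 ± 0.688 to 11.3 ± 1.89 CPM (log2 fold change -0.49, edgeR adjusted p = 0.026). The death receptor gene FAS was at 25.9 ± 2.23 CPM in control and 27.2 ± 0.291 in acidosis, with overlapping samples and a log2 fold change of 0.07 (SE 0.109, -0.51 under total count scaling). It thus differed in call from TNFRSF10B, the other death receptor gene of the list, although the difference between these genes was not tested. ZMAT3, a zinc finger RNA-binding protein, was at 40.1 ± 3.12 and 41.9 ± 3.8 CPM (log2 fold change 0.06, and -0.52 under total count scaling). GDF15, the secreted stress factor of the list, had 12 to 54 counts per sample, the fewest of the members. At 1.35 ± 0.176 CPM in control, 1.83 ± 0.226 with SRPIN340 and 1.45 ± 0.513 in acidosis, it did not pass (log2 fold change 0.12, SE 0.413, edgeR adjusted p = 0.814, and -0.45 under total count scaling).

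**Figure D3:**
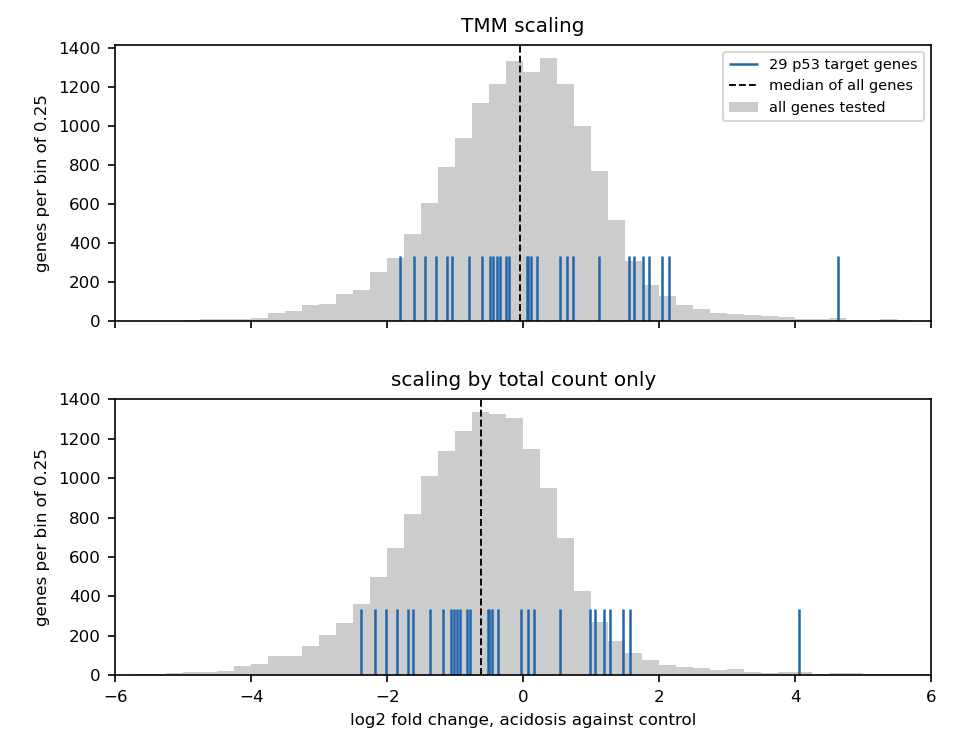
Log2 fold changes in acidosis against control of the 14863 genes tested (grey bars, genes per bin of 0.25) and of the 29 p53 target genes (blue lines), with TMM scaling above and scaling by total count only below. The member lines are spread over both sides of the dashed median of all genes, at -0.05 above and -0.63 below, and GADD45A is the line farthest to the right.

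None of the 29 genes was called with SRPIN340. Against control, 0 members were called and 0 passed, where 0.323% of all genes were called and 2.3% passed with edgeR. DESeq2 also called 0. At an unadjusted p under 0.05 there were 3 members, with 17.6% of all genes below that level. TP53I3 had a log2 fold change of -0.59 with a 95% interval of -0.97 to -0.22 (edgeR adjusted p = 0.105). ZMAT3 had 0.34, with an interval of 0.08 to 0.60 (edgeR adjusted p = 0.162), and PLK3 had -0.66, with an interval of -1.21 to -0.10 (edgeR adjusted p = 0.208). The median over the members was -0.14, and over all genes 0.002. Samples of the 2 groups did not overlap for 20 members, 7 above and 13 below, as was so for 54.1% of all genes, 27.3% above and 26.8% below. For MDM2 the 95% interval of the log2 fold change was -0.69 to 0.11, for GADD45A -0.06 to 0.46, and for TNFRSF10B -0.21 to 0.16. Changes as large as the fold limit thus lay outside these 3 intervals, while small ones did not. The intervals of PLK3, GDF15 (-0.54 to 1.41) and SPATA18 (-1.31 to 0.23) did reach past that limit.

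Acidosis and SRPIN340 were also compared directly, in the same fit. The 8 members called higher against control were also the 8 called higher here, and 4 were called lower: CCNG1, XPC, DDB2 and TIGAR. Of all genes, 14.9% were called higher and 19.7% lower. This comparison shares the acidosis samples with the one against control. GADD45A had a log2 fold change of 4.43 (SE 0.122) against SRPIN340, MDM4 2.02 (SE 0.119) and XPC -2.03 (SE 0.131). DDB2, at -1.02 (SE 0.193, edgeR adjusted p = 0.00105), lay at the fold limit and lost its call with DESeq2, with RLE size factors and without the first or second acidosis sample or the first SRPIN340 sample. FDXR and TP53I3 passed at -0.80 and -0.45 and were not called.

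Among well-known p53 targets outside the 29, CDKN1A, PMAIP1 and BBC3 rose strongly in acidosis, while the longer list of other targets given below went both ways. CDKN1A, the inhibitor of cyclin-dependent kinases that is the best-known p53 target, rose from 99.8 ± 1.8 CPM in control (n = 2) to 389 ± 25.1 in acidosis (n = 3, log2 fold change 1.96, edgeR adjusted p = 7.01e-08). PMAIP1 and BBC3, which encode the BH3-only death proteins NOXA and PUMA, rose by 3.77 and 2.86 on the log2 scale (edgeR adjusted p = 7.58e-09 and 4.83e-07). BAX, the pore-forming death protein, went from 55.7 ± 1.02 to 46.3 ± 1.57 CPM in acidosis (log2 fold change -0.27, edgeR adjusted p = 0.0296), and 4 of the 5 fits without 1 sample no longer passed, at -0.25 to -0.31. With SRPIN340 it was at 35.9 ± 3.19 CPM, a log2 fold change of -0.63 that passed but was under the fold limit (edgeR adjusted p = 0.0205), and it did not pass without any single sample of either group, with adjusted p between 0.0961 and 0.256.

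**Figure D4:**
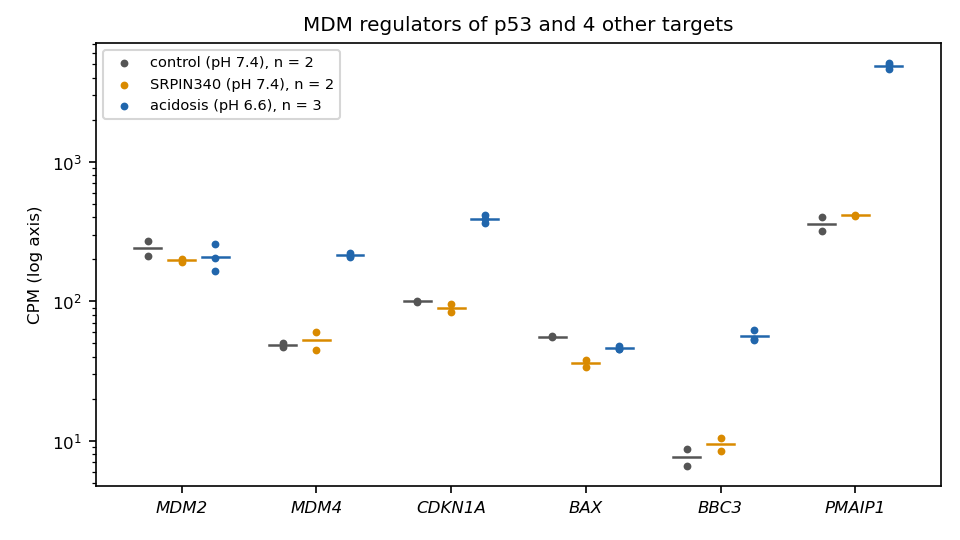
CPM on a log axis of MDM2, MDM4, CDKN1A, BAX, BBC3 and PMAIP1 in each sample, with a short line at each group mean (control and SRPIN340 n = 2, acidosis n = 3). The acidosis points of MDM4, CDKN1A, BBC3 and PMAIP1 lie above all others, while those of MDM2 overlap the control points.

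A list of 97 other known p53 targets gave shares near those of all genes in acidosis. Of 95 tested, 16 were called higher and 21 lower, where 14.4% and 19.1% of all genes were. With the adjusted p alone 37 passed as higher and 34 as lower, beside 32.5% and 34.2%. The median log2 fold change of the list was 0.05, and single genes ran from -2.71 to 5.62. With scaling by total count only, 11 were called higher and 31 lower, beside 815 and 5202 of all 14863 genes. The median was then -0.53 beside the -0.63 of all genes. ATF3, a stress-induced transcription factor, had the largest absolute change among called genes of this list with a mean of at least 10 CPM, from 37.0 ± 4.57 to 1820.3 ± 28.4 CPM (log2 fold change 5.62, edgeR adjusted p = 8.67e-09), followed by PMAIP1 and BBC3. With SRPIN340 0 of the 95 were called and 2 passed, both as lower, where 0.323% of all genes were called and 2.3% passed, and 13 were below an unadjusted p of 0.05, as were 17.6% of all genes.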

How the data were processed

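HEK-293 libraries of messenger RNA were sequenced in 3 groups of 2, 2 and 3 samples. After trimming, the authors ran Salmon on a Gencode transcriptome of GRCh38.p13 and deposited tximport estimated counts per gene, which carry no scaling between libraries. The submitters' processing notes name Trimmomatic 0.39, Trim Galore 0.6.6 and Salmon 1.5.1. Antisense reads cannot be told apart where the counting ignores strand, which is not given in the sources used here.

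Counts were rounded and fitted once across all 7 samples with edgeR 4.0.16 in R 4.3.3 (TMM, filterByExpr, quasi-likelihood test, group as the only term). The SE was derived from the test statistic and intervals are 95%. Replicates of a group differed beyond sampling noise. The study's methods call the samples biological repeats, and p-values measure the spread between them. Simulated counts with known changes were used to test the fit. Symbols, coordinates and overlaps come from GENCODE release 44 (GRCh38), with 19977 of 19978 identifiers matched. Consensus matches were read from the GRCh38 genome around start sites of genes with a RefSeq promoter entry. GADD45A, RRM2B, TP53INP1, TNFRSF10B and PHLDA3 had none.

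Every member was named. Of the other lists (other targets, regulators, DREAM genes) the 3 called genes with the largest absolute change in acidosis and a mean of at least 10 CPM were named, with CDKN1A, BAX, BBC3 and PMAIP1 in every case. A further gene of this rule and a marker gene are not reported here. Members and lists were chosen with earlier results of these data known. Alternatives were DESeq2 1.42.0, RLE, upper quartile and total count scaling, no filter, a minimum of 6 CPM, a fit of the compared groups, a replicate block, no fold limit, and each sample left out in turn. For the other lists and for named genes outside the 29, they were added after the data had been seen.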

Additional observations from a re-analysis of the deposited data

How the results depend on the processing

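The 29 members gave the same 14 calls in acidosis against control with DESeq2, RLE size factors, no filter, a minimum of 6 CPM or a fit of the 2 groups alone, and 0 calls with SRPIN340 in every alternative. Total count scaling called 10 members lower in acidosis against control and 9 against SRPIN340, beside 5202 and 5505 of all 14863 genes. It moved the member medians to -0.52 and -0.71. Against control it called 0 regulators higher and 7 lower, 2 DREAM genes higher and 16 lower, and 11 other targets higher and 31 lower. Of all 14863 genes this scaling called 815 higher and 5202 lower against control. It turned the log2 fold change of RRM2B to -0.37, FAS to -0.51, CYFIP2 to -0.032, ZMAT3 to -0.52 and GDF15, which passed in neither fit, to -0.45 against control, and of MDM2 to -0.52 and RRM2B to -0.60 against SRPIN340. Upper quartile scaling gave member medians of -0.10 and -0.26 and lost the call of PLK2 against control. There it called 3 regulators higher, beside 1634 of all 14863 genes. Both scalings by construction move all genes in 1 direction. Without the fold limit 10 members were lower against control and 8 against SRPIN340, beside 5081 and 5202 of all 14863 genes. Leaving out 1 sample at a time gave 8 members higher in each fit and 4 to 6 lower against control (3 to 4 lower against SRPIN340), with medians of -0.18 to 0.14 and of -0.18 to -0.052. Whether replicate numbers pair the samples was not settled. Deviations of same-numbered samples from their group mean correlated between -0.297 and 0.125 over 10119 genes. In a group of 2 samples these deviations mirror each other, so the check cannot exclude pairing. A fit with the replicate number as a block called 8 members higher and 4 lower in acidosis against control, without FDXR and TP53I3, and BAX did not pass in it. GDF15 had the fewest counts of the members, and 2 samples in a group limit the precision of every interval.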

Other observations

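Among 40 relatives and regulators of p53, 39 were tested in acidosis against control, and 8 were called higher and 4 lower (14.4% and 19.1% of all genes), with a median log2 fold change of 0.35. Under total count scaling 0 were called higher and 7 lower, beside 815 and 5202 of all 14863 genes, and the median was -0.22. KMT5A and SETD7, methyltransferases that modify p53 among other proteins, rose by 1.52 and 1.47 on the log2 scale (edgeR adjusted p = 1.21e-06 and 3.55e-07), which fell under the fold limit with total counts, while TRIM24, a ubiquitin ligase for p53, fell by 1.45 (edgeR adjusted p = 3.46e-06). With SRPIN340 0 of these genes were called and 2 passed, both as lower, beside 2.3% of all genes.

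Active p53 lowers many cell cycle genes through p21 and the DREAM complex, and 40 such genes were tested. In acidosis 5 were called higher and 11 lower (14.4% and 19.1% of all genes). With the adjusted p alone 14 passed as higher and 19 as lower (32.5% and 34.2% of all genes), and the median was -0.13. Under total count scaling 2 were called higher and 16 lower, beside 815 and 5202 of all 14863 genes, and the median was -0.70. AURKA, a mitotic kinase, fell from 85.5 ± 0.759 to 19.3 ± 1.27 CPM (n = 2 and 3, log2 fold change -2.16), and CENPF, a kinetochore protein, fell by 1.88, whereas CKS1B, a cofactor of cyclin-dependent kinases, rose from 70.6 ± 3.13 to 268.7 ± 8.3 CPM (log2 fold change 1.93, edgeR adjusted p = 3.18e-08). With SRPIN340 0 of the 40 were called and 21 were below an unadjusted p of 0.05, beside 17.6% of all genes. The number that passed as lower depended on the tool. It was 5 with edgeR and 16 with DESeq2, beside 228 of 14863 and 562 of 18021 genes. With edgeR under total count scaling it was 3, beside 162 of 14863 genes. With SRPIN340 34 of the 40 had a log2 fold change below 0, beside 7356 of 14863 genes. The median of the 40 was -0.22, where that of all genes was 0.002. Both SRPIN340 samples lay below both control samples for 30 of the 40, as for 26.8% of all genes.

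Other pairs of members gave wide gaps in their ratio within a sample, which needs no scaling between libraries. The pairs were chosen after their values had been seen and have no test. On the log2 scale the ratio of GADD45A to XPC was higher in acidosis than in control by 6.46, that of AEN to TIGAR by 3.46 and that of PERP to CCNG1 by 3.31. In each of these pairs the 3 acidosis samples lay above all 4 others.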
